A study of Homo sapiens with 10 samples.

Results

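The expressed LINC genes are the 57 of 262 LINC symbols that reached 1 FPKM (fragments per kilobase, a level corrected for transcript length and for the reads of the library) in at least 1 of 8 columns of expression values. LINC is the symbol given to long intergenic noncoding RNA genes. The members were chosen by these FPKM levels, so that their being expressed is no finding and their levels are given as a description. Over all genes, 14466 of 22013 symbols passed the same minimum. The highest values of the members nearest to that minimum were 1.02 FPKM for LINC00654, 1.08 for LINC00634 and 1.09 for LINC00115, and just outside it lay LINC00852 at 0.960, LINC00535 at 0.940 and LINC00629 at 0.916.

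Long noncoding RNAs are transcribed and spliced like messenger RNAs but are not known to be read into a long protein. Some act on neighbouring genes or on chromatin, some bind proteins or microRNAs in the cytoplasm, some are precursors of small RNAs, and some turned out to encode very small proteins. In pluripotent and early embryonic cells many of them are known for narrow patterns of expression, and a few, such as LINC-ROR and the RNA of LINC00617, have been tied to the pluripotent state.

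All cells came from WA09, a long-used line of human embryonic stem cells (hESC). Besides the undifferentiated line there were 4 derivatives: NPC, the neural progenitors, NCSC, labelled as pre-neural crest, DE, labelled as definitive endoderm, and MESO, labelled as splanchnic mesoderm. Every group was this 1 line, with 2 poly-A libraries per cell type, 10 in all, and whether the libraries came from separate cultures is not said in the labels. Undifferentiated cells received activin A (10 ng/mL), heregulin (10 ng/mL), IGF-I (200 ng/mL) and FGF (8 ng/mL) over 4 days. For DE the medium held activin A at 100 ng/mL and FGF at 8 ng/mL over 4 days, with Wnt-3a (25 ng/mL) on the opening day. For MESO, BMP-4 (100 ng/mL) and Wnt-3a (25 ng/mL) were added to all 4 of the hESC factors over 4 days. For NPC the cells had heregulin (10 ng/mL), IGF-I (200 ng/mL), the inhibitor LDN (500 nM) and SB431542, and for NCSC heregulin (10 ng/mL), IGF-I (200 ng/mL), FGF (8 ng/mL), SB431542 and BIO, both over 6 days. LDN blocks BMP receptors, SB431542 blocks activin receptors and BIO inhibits GSK3. Seeding was at 90000 cells per square centimetre for NPC and NCSC and at 50000 for the rest.

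Each derivative was deposited with hESC in a table of its own, with 1 FPKM per cell type, so there are 4 hESC columns, from the same cells, and no spread between libraries. Read depth is unknown. Intervals of the tables are on hg19. A change is the difference of log2(FPKM + 1) from hESC of the same table, a scale that understates the change of low genes. Rose and fell are used below for members with a q-value under 0.05 in the authors' deposited table; all other differences are given as levels only, with no replicate check. Of the label markers, all 7 splanchnic mesoderm genes rose in MESO, 6 of 7 neural genes in NPC and 4 of 6 endoderm genes in DE. Some rose elsewhere too. GATA4 rose in DE, to 56.1 FPKM against 49.3 in MESO, and OTX2 in DE, to 177 against 153 in NPC. SOX1 rose in NCSC, to 9.56 against 5.24 in NPC. The endoderm genes GATA6 and CXCR4 rose in MESO, and CXCR4 also in NPC and NCSC. No other gene of these lists rose outside its own cell type. In NCSC only PAX3 and SOX9 rose of 5 crest genes, while TFAP2A, TFAP2B, PAX7 and ZIC1 lay at 0.0463, 0.0987, 0.0512 and 0.116 FPKM, so that the crest label rests on few of its markers. Both PAX3 and SOX9 also rose in MESO and NPC. PAX3 was highest in NCSC, at 18.6 FPKM against 2.06 in MESO and 1.87 in NPC. SOX9 was lower in NCSC, at 16.1 against 31.9 and 23.4. TFAP2A rose in MESO, to 38.8 FPKM. Since the samples are bulk RNA, fewer cells of a type and less RNA per cell cannot be told apart.

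Sequences of the promoters are shown for LINC genes on which the results below turn, as 300 bases each, from 250 before to 50 after the RefSeq start (GRCh38.p14, 5′ to 3′ on the gene's strand). CG pairs are in capitals, as is the TATA box word TATAAA on either strand. The first pair are LINC00261 (chr20:22578593-22578892, minus strand) and LINC00479 (chr21:41715726-41716025, minus strand), which stood highest in DE. LINC00379 (chr13:91211649-91211948, minus strand) stood highest in MESO and LINC00173 (chr12:116533172-116533471, plus strand) in NCSC. LINC00617, now TUNAR (chr14:95876198-95876497, plus strand), and LINC00839 (chr10:42475241-42475540, plus strand) were highest in hESC. LINC00657, now NORAD (chr20:36050911-36051210, minus strand), was high in every cell type.
LINC00261: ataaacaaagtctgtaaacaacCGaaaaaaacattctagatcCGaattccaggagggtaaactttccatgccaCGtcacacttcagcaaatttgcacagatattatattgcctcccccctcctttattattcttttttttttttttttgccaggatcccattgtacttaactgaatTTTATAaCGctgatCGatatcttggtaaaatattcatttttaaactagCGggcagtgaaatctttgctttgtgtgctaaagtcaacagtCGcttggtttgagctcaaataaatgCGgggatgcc
LINC00479: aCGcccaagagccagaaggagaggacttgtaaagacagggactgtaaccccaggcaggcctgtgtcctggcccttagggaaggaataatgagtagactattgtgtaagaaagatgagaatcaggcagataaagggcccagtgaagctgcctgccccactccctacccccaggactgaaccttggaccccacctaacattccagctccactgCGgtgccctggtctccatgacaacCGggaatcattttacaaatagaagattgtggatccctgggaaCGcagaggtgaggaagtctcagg
LINC00379: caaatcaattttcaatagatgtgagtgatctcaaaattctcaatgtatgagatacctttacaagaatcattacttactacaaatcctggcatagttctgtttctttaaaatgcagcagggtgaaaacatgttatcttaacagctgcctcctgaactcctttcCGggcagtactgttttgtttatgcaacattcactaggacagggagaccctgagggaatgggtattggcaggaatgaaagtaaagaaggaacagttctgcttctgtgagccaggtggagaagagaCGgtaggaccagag
LINC00173: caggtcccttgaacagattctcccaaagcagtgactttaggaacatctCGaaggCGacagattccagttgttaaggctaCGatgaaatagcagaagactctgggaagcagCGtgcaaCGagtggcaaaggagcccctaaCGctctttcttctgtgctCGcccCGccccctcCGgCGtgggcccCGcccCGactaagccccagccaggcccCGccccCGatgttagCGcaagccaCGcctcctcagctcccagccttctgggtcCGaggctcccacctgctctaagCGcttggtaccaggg
LINC00617: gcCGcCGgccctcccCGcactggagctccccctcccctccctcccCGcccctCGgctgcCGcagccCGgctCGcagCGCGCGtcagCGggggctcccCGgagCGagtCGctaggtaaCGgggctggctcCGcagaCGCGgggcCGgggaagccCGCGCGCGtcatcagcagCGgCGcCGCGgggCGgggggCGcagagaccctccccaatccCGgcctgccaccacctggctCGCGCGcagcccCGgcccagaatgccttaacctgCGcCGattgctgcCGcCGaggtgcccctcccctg
LINC00839: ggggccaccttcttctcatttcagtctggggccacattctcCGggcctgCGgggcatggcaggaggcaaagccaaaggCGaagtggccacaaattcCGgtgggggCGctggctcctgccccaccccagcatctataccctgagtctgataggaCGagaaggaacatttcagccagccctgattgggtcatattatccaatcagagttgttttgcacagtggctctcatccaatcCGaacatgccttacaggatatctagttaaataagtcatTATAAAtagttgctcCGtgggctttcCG
LINC00657: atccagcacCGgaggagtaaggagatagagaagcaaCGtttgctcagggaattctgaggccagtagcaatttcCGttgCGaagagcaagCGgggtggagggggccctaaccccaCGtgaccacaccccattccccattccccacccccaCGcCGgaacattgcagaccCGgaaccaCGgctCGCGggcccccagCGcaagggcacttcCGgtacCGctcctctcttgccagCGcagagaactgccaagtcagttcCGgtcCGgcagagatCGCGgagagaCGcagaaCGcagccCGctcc

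The windows differ at sight in their CG pairs. That of LINC00617 holds 39 and that of LINC00657 holds 23, against 4 in LINC00479 and 2 in LINC00379. LINC00261 has 8 in a window of only 37.0% GC and holds the TATA box word on its opposite strand, and LINC00839 holds that word on its own strand.

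The levels were uneven. LINC00493 was the highest member in all 8 columns, from 68.1 FPKM in MESO to 87.9 in NCSC, and the median member lay between 1.13 FPKM in MESO and 1.61 in the hESC column of the NPC table. In each column the 5 highest members held from 60.4% to 66.8% of the summed FPKM of the members. By mean FPKM the order began with LINC00493, LINC00657, LINC00263, LINC00665 and LINC00617. LINC00493 (chr20:18548072-18550203, hg19) is named SMIM26 in RefSeq and listed there as protein coding, its product being a small mitochondrial protein. LINC00657 (chr20:34633539-34638882) is NORAD, a cytoplasmic RNA known for binding Pumilio proteins. It was listed at 36.6, 40.6, 44.1 and 49.0 FPKM in hESC and at 46.5 in DE, 42.6 in MESO, 40.3 in NPC and 53.0 in NCSC, so that only NCSC lay above all of the hESC columns.

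LINC00263 (chr10:102133332-102148111; OLMALINC in RefSeq) lay at 22.6, 23.2, 24.9 and 38.2 FPKM in hESC, the highest value being that of the DE table. It was at 53.7 in DE, 26.4 in MESO, 29.7 in NPC and 41.3 in NCSC, each above its own hESC column. LINC00665 (chr19:36802244-36822646) was at 25.1, 34.4, 35.1 and 36.6 in hESC and lower in every derivative, at 23.5 in DE, 14.3 in MESO, 24.0 in NPC and 19.8 in NCSC. None of these 4 passed the q-value in any table. Of the 10 members listed as broadly expressed, LINC00657, LINC00263 and LINC00665 among them, 1 rose (LINC00667) and 1 fell (LINC00152) in NPC. In NCSC 1 rose (LINC00673) and 1 fell (LINC00339), and none passed in DE or MESO.

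**Figure D1:**
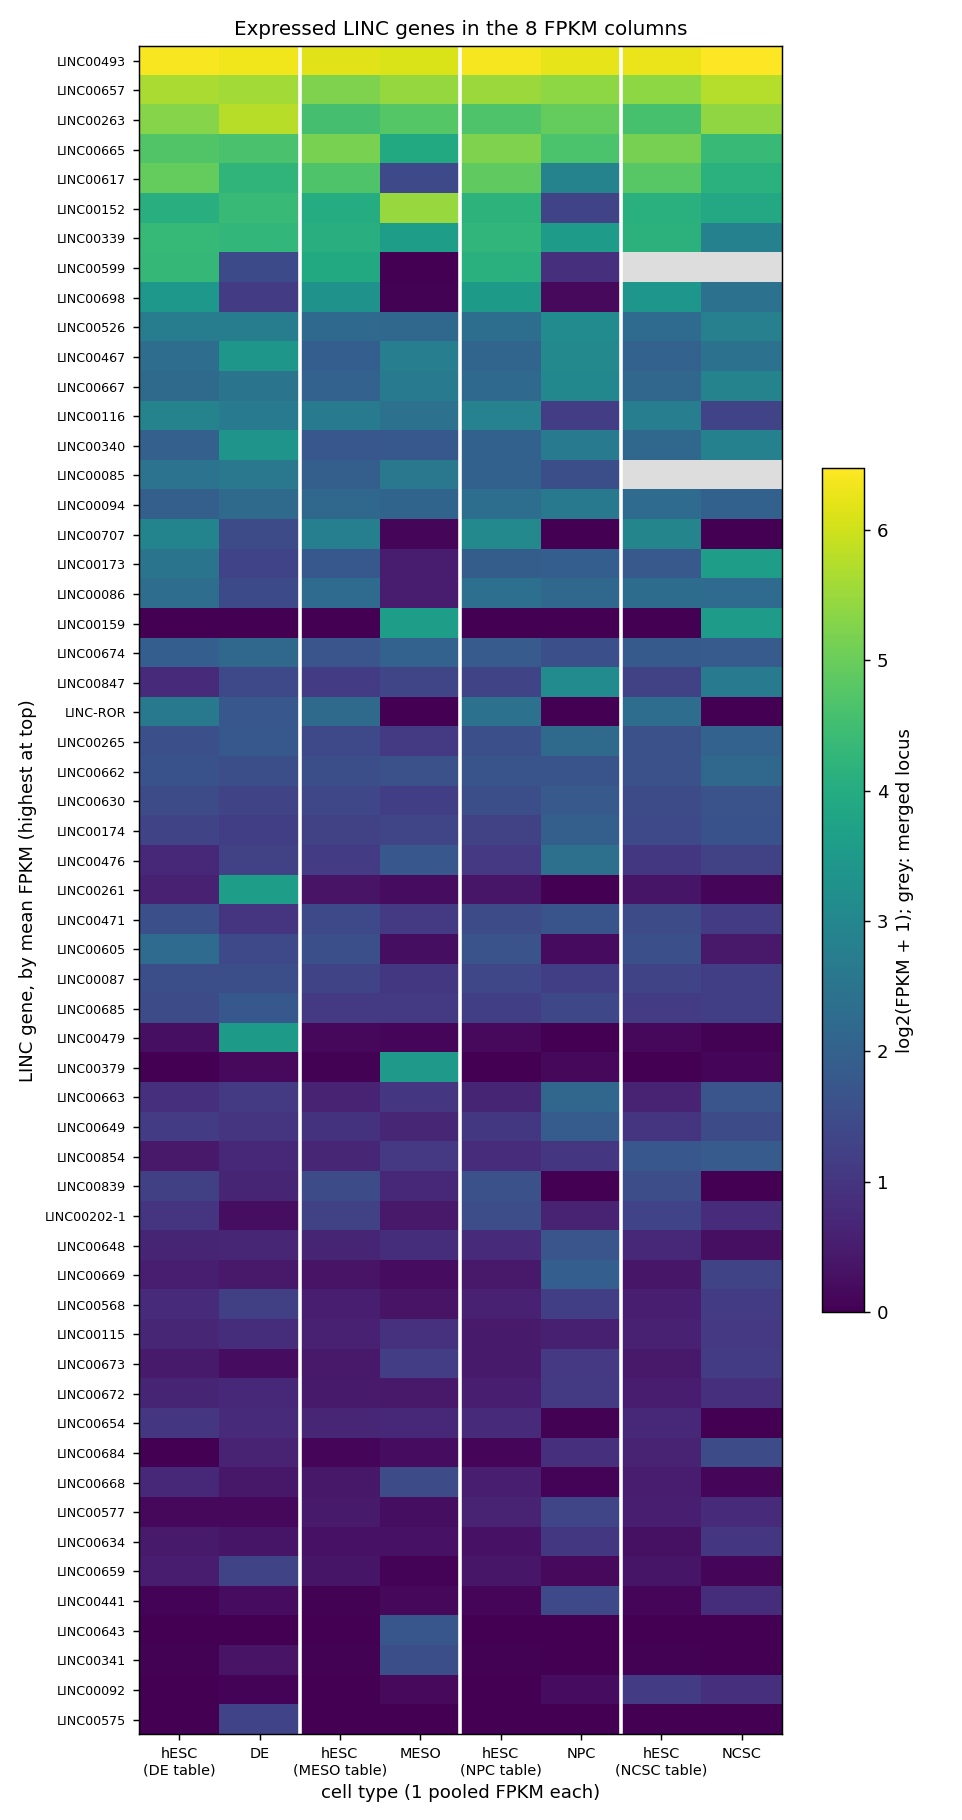
Levels of the 57 LINC genes as log2(FPKM + 1) in the 8 columns, hESC and derivative of each table side by side, ordered by mean FPKM; grey cells are genes that the NCSC table gives only in a merged locus. A few genes, LINC00493 and LINC00657 at the top, are high in all columns, while many low ones are bright in 1 column alone.

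Of the 57 members, 20 had at least 1 FPKM in all 8 columns and 16 in only 1. Members do not all stand for noncoding RNA today. RefSeq (GRCh38.p14) keeps 33 of the symbols, has renamed 22 and gives more than 1 candidate for 2. By its present gene types, 44 are long noncoding RNAs, 12 protein coding and 1 a transcribed pseudogene.

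By the authors' deposited tables, no member passed in DE of 48 tested, 3 fell in MESO of 46, 8 rose and 11 fell in NPC of 48, and 6 rose and 6 fell in NCSC of 48. The shares of all genes called were 0.411% higher and 0.00735% lower in DE, 9.31% and 5.61% in MESO, 12.0% and 25.7% in NPC, and 10.3% and 20.5% in NCSC. Since the FPKM columns chose the members, nothing is read from that comparison. In DE 6 members had an unadjusted p-value under 0.05 in the authors' deposited table, against 10 in MESO, 24 in NPC and 20 in NCSC. The share of all genes with such a p-value was not counted, so nothing is read from these numbers either. Of the 57 members 24 were called at least once and 33 never. How many of all genes were called at least once was not counted, so this is a description only. The 4 comparisons share their hESC libraries.

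The median change of the members was 0.00 in DE, -0.01 in MESO, 0.05 in NPC and 0.08 in NCSC. Over all genes with at least 1 FPKM it was 0.03, 0.05, -0.23 and -0.20. The middle of the members thus lay 0.28 above that of all genes in NPC and in NCSC and 0.03 and 0.06 below it in DE and MESO. A change of at least 1 in either direction was seen in 9 members in DE, 15 in MESO, 14 in NPC and 10 in NCSC, which is 15.8%, 26.3%, 24.6% and 18.2%. For all genes these shares were 10.9%, 20.8%, 29.6% and 23.8%. The FPKM columns chose the members, and those low in hESC entered only by being higher in a derivative. Changes of low members are also understated on this scale. Nothing is therefore read from the medians or the shares set against all genes.

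**Figure D2:**
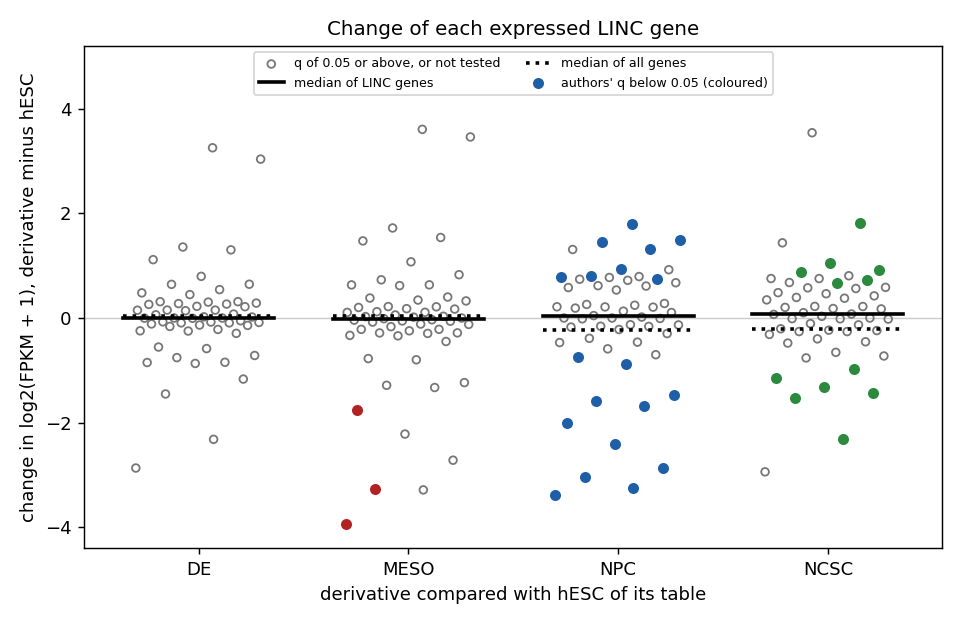
Change of each LINC gene in log2(FPKM + 1), derivative minus hESC of the same table (y axis), for the 4 derivatives (x axis, points spread sideways for sight); filled points have the authors' q below 0.05, solid bars are the median of the LINC genes and dotted bars that of all genes. Most points lie near 0, no point is filled in DE, and all 3 filled points in MESO lie below 0.

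Of the 2 members of the pluripotent list, both fell in NPC, LINC00617 alone in MESO, LINC-ROR alone in NCSC and neither in DE. LINC-ROR (chr18:54721792-54739406), named as a regulator of reprogramming, was at 3.69, 3.95, 4.29 and 5.19 FPKM in hESC. It was at 2.39 in DE, 0.00843 in MESO and listed at 0 in NPC and NCSC. The hESC columns thus lay above every derivative. It fell in NPC (q = 0.000323) and NCSC (q = 0.000455) in the authors' deposited tables, while in MESO, with a level near 0, q was 0.544. LINC00617 (chr14:96343108-96391908), the TUNAR gene known from pluripotent and neural cells, lay between 25.0 and 29.9 FPKM in hESC. It was at 17.8 in DE, 1.70 in MESO, 6.42 in NPC and 16.6 in NCSC. The level in hESC was 14.7-fold that in MESO (q = 0.000868) and 4.47-fold that in NPC (q = 0.000323), both called in the authors' deposited tables. Of the 10 symbols of that list only these and LINC00547, at or near 0 throughout, were found in the tables.

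Both members that marked hESC, that is, whose lowest hESC value was at least 1 log2 unit above the highest value of every derivative, are LINC00599 and LINC00707. LINC00599 is the host gene of miR-124-1, a microRNA known from neurons. It was at 14.4, 16.3 and 18.9 FPKM in hESC, at 1.73 in DE, listed at 0 in MESO and at 0.825 in NPC, a margin of 2.49 log2 units. It fell in MESO (q = 0.000868) and NPC (q = 0.000323) in the authors' deposited tables. The NCSC table has it only as a locus merged with the microRNA, at 15.1 FPKM in hESC and 1.61 in NCSC (q = 0.000455 in the authors' deposited table). So the host gene of a neuronal microRNA was lower in the neural progenitors than in hESC.

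LINC00707 (chr10:6821559-6884868) was at 5.99, 6.63, 6.72 and 7.25 FPKM in hESC. It stood at 1.79 in DE, 0.0632 in MESO, 0.00603 in NCSC and was listed at 0 in NPC, a margin of 1.32. It fell in NPC with q = 0.000323 in the authors' deposited table, and the nearly equal level in NCSC had q = 0.391. Over the 8 columns its coding gene of most like pattern was PHC1, a Polycomb subunit (Pearson's r = 1.00), followed by PRDM14, a pluripotency factor (r = 0.999). These columns share the hESC libraries, and the correlations are descriptions only.

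LINC00698 (chr3:63088152-63110737) came close to marking hESC, with a margin of 0.91. Its hESC values were 9.02, 9.53, 9.91 and 10.6 FPKM, and it was at 1.19 in DE, 0.0282 in MESO, 0.112 in NPC and 4.33 in NCSC. The authors' deposited tables have it falling in NPC (q = 0.00224) and NCSC (q = 0.0485), with q = 0.0797 in MESO. NCSC thus kept the highest level of the derivatives. LINC00839 (chr10:42970938-42990785), at 1.34 to 2.02 FPKM in hESC, was at 0.591 in DE and 0.650 in MESO and listed at 0 in NPC and NCSC, where it fell (q = 0.000323 and 0.000455 in the authors' deposited tables). LINC00605 (chr14:103653557-103655365) fell in NPC, from 2.18 to 0.143, and in NCSC, from 2.01 to 0.362 (q = 0.0361 and 0.0206 in the authors' deposited tables). It was at 0.184 in MESO, and its hESC column in the DE table (3.83) stood apart from the other 3 (1.97 to 2.18).

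Of 8 LINC symbols listed as encoding small proteins 5 are members, of which 1 fell in MESO, 1 in NPC and 1 in NCSC and none rose. That list does not hold every coding member: of the 12 that RefSeq gives as protein coding, LINC00634 (SMIM45) rose in NPC and NCSC, LINC00684 (FAM236A) rose in NCSC, and LINC00617 (TUNAR) fell in MESO and NPC. LINC00116 (chr2:110969105-110980517) is MTLN in RefSeq, the gene of mitoregulin, which is a small protein of the inner mitochondrial membrane. In hESC it lay at 5.48, 5.76, 6.32 and 6.44 FPKM, in DE at 5.39 and in MESO at 4.32. It was at 1.27 in NPC and 1.51 in NCSC, with hESC 4.99-fold and 3.81-fold higher (q = 0.000607 and 0.000848 in the authors' deposited tables). LINC00493, also of a mitochondrial protein, had changes from -0.16 to 0.18 over the 4 tables. LINC00086 (chrX:134555867-134561959) fell in MESO from 3.83 to 0.436 FPKM (q = 0.000868 in the authors' deposited table). It was at 3.60 in NPC and 3.82 in NCSC, near hESC. Its neighbour symbol LINC00087 was at 1.52 and 1.07 in the MESO table. Both map to the near-identical SMIM10L2A and SMIM10L2B, so that their reads may be split between them and each value is uncertain.

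In DE the highest changes belonged to LINC00479, LINC00261, LINC00340, LINC00575 and LINC00467, and none passed. LINC00261 (chr20:22541191-22559280), which lies beside FOXA2 and is known from endoderm, was at 0.513 FPKM in hESC and 11.4 in DE, 22.3-fold higher. In the other columns it was at most 0.309. Its q was 0.221 in the authors' deposited table, although the test statistic was 4.63. LINC00479 (chr21:43131679-43135935) was at 10.5 in DE against 0.210 in hESC, with no other column above 0.114, and q was 0.349 in the authors' deposited table. LINC00575 (chr4:83534265-83542590) was at 1.47 in DE and listed at 0 in the other 7 columns.

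These 3 marked DE, with margins of 3.25 for LINC00479, 3.04 for LINC00261 and 1.30 for LINC00575. LINC00659 missed by its margin of 0.80, at 1.49 FPKM in DE and 0.433 or less elsewhere. The coding genes of most like pattern were ACSM4 for LINC00479 and GPR151 for LINC00261 (r = 1.00 and 0.998 over 8 columns), which, as in any gene found in 1 column, mostly says that they too were highest in DE. LINC00340 (chr6:21666618-22194616; CASC15 in RefSeq) was at 2.99 FPKM in hESC and 9.21 in DE, and LINC00467 at 3.94 and 9.71. In DE, where 0 of 48 members passed, only 57 genes of 13612 tested were called at all.

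In MESO the members with the highest changes were LINC00159, LINC00379, LINC00643, LINC00341, LINC00152 and LINC00668, and none passed. LINC00379 (chr13:91779866-91863952) was at 0.0234 FPKM in hESC and 10.3 in MESO, and at 0.111 or less in every other column (q = 0.544 in the authors' deposited table). LINC00643 (chr14:62584074-62600903) was at 0.00744 and 2.32 and LINC00341 (chr14:95873603-95876427) at 0.0199 and 1.96. LINC00152 (chr2:87754973-87821030; CYTOR in RefSeq) was broadly expressed. It lay at 15.1 to 17.3 FPKM in hESC, 19.7 in DE, 43.7 in MESO, 13.9 in NCSC and 1.51 in NPC. MESO stood 2.90-fold above its hESC column without passing (q = 0.0900), and NPC fell, with hESC 11.5-fold higher (q = 0.00133, both in the authors' deposited tables). So its highest level was in MESO and its lowest in NPC. A near-identical copy of this gene exists, MIR4435-2HG, so its reads may be split and its level is uncertain.

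These 4 marked MESO, with margins of 3.34 for LINC00379, 1.72 for LINC00643, 1.22 for LINC00341 and 1.11 for LINC00152. RefSeq gives LINC00341 as SYNE3, a protein-coding gene much longer than the deposited interval (109385 against 2825 bases), and LINC00643 as SERTAD4BP, a transcribed pseudogene, so that neither is a long noncoding RNA by its present gene type. LINC00643 stood in the list of LINC genes of the nervous system, and was at 0.00297 FPKM in NPC. C14orf23, of the same list but under 1 FPKM and no member, went from 0 in hESC to 0.573 in NPC (q = 0.000323 in the authors' deposited table). LINC00668 (chr18:6925472-6929868), at 0.341 in hESC and 1.82 in MESO, fell short with a margin of 0.78. The coding genes most like them over 8 columns were RGS4 for LINC00379, HOXA11 for LINC00643, NANOS3 for LINC00341 and S100A11, at 1012 FPKM in MESO, for LINC00152 (r from 0.991 to 1.00). Markers of other cells moved with MESO. Of 7 trophoblast and amnion genes, the 6 with at least 1 FPKM all rose, and the list summed to 19.8 FPKM in hESC and 510 in MESO, with CGB, at 0.416, below the minimum. ISL1, at 32.2 in MESO, is counted both there and among the 7 splanchnic mesoderm genes. Of 7 fibroblast genes 6 rose, with sums of 115 and 1117. Their part in the MESO levels of the LINC genes was not tested.

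LINC00159 (chr21:33452793-33458608) was listed at 0 in 6 columns and at 11.2 FPKM in MESO and 10.6 in NCSC. It therefore marked neither cell type, and it did not pass in either (q = 0.310 and 0.186 in the authors' deposited tables). As a sum, fibroblast genes stood higher in both of these derivatives, 4 of 7 rising in NCSC with sums of 114 and 749 FPKM. Most of the NCSC sum was COL1A1 and COL1A2, at 329 and 413 FPKM. DCN and LUM lay at 0.0506 and 0.0926 in NCSC, and POSTN was lower there, at 0.0365 against 0.355 in hESC. FBN1, which rose in NCSC, also rose in NPC, to 18.5 FPKM, where LINC00159 was listed at 0. The part of fibroblast genes in the level of LINC00159 was not tested.

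**Figure D3:**
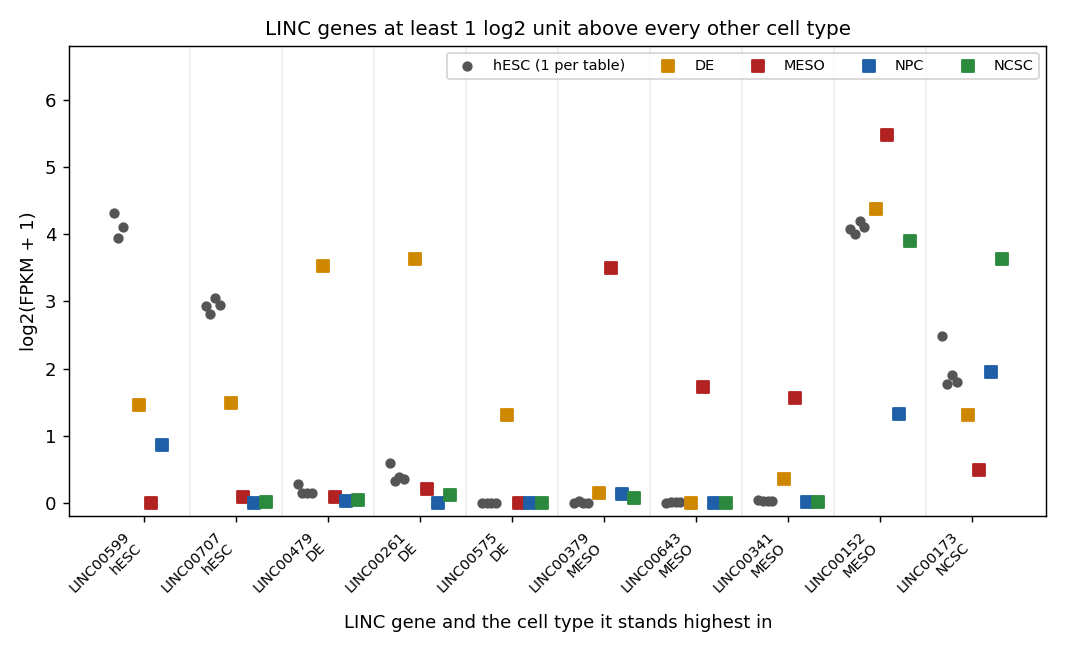
Levels, as log2(FPKM + 1), of the 10 LINC genes at least 1 log2 unit above every other cell type; grey dots are the hESC columns and coloured squares the derivatives, and the name under each gene is the cell type it marks. LINC00479, LINC00261 and LINC00379 stand at 10.3 to 11.4 FPKM in 1 derivative and at 0.513 or less elsewhere, whereas LINC00152 and LINC00173 are present in other cells as well.

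In NPC no member marked the cells, yet 8 rose. LINC00847 (chr5:180256953-180262726) was at 1.50 FPKM in hESC and 7.69 in NPC (q = 0.0170 in the authors' deposited table). It was also at 5.50 in NCSC, 1.68 in DE and 1.55 in MESO. It shares its interval with the locus HEIH, and in the DE table it has another row in the same interval, at 1.44 in hESC and 0.490 in DE, which goes the other way from the row used (0.719 and 1.68). Its level is uncertain for that reason, as strand use in counting is not given in the sources used here. LINC00669 (chr18:36786887-37331959; MIR924HG, a microRNA host gene) rose from 0.349 to 2.81, 8.06-fold, and LINC00663 (chr19:19867180-19887222) from 0.601 to 3.39, 5.65-fold (q = 0.00395 and 0.00112 in the authors' deposited table). LINC00441, named RB1-DT in RefSeq as the divergent transcript of RB1, rose from 0.0756 to 1.70 FPKM (q = 0.00574 in the authors' deposited table).

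LINC00648 rose from 0.698 to 2.25 FPKM, LINC00667 from 3.67 to 7.07, LINC00649 from 1.09 to 2.66 and LINC00634 from 0.243 to 1.08. LINC00648 had the highest NPC margin, 0.87, and stood at 0.202 in NCSC. The 8 that rose reached at most 7.69 FPKM in NPC, the level of LINC00847. Of the 11 that fell, 7 were below that level in hESC and 4 above it, LINC00617, LINC00152, LINC00599 and LINC00698, at 28.7, 17.3, 16.3 and 10.6 FPKM. With normal p-values from the authors' score, LINC00648, LINC00667, LINC00649, LINC00634 and LINC00202-1 did not pass in NPC (Benjamini-Hochberg adjusted p = 0.0857, 0.156, 0.170, 0.126 and 0.0599). Besides those named above, LINC00202-1 and LINC00654 fell in NPC, from 1.88 to 0.570 and from 0.731 to 0.0355.

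In NCSC the 6 that rose were LINC00173, LINC00663, LINC00669, LINC00684, LINC00634 and LINC00673. All 6 calls rest on the authors' q-value: with normal p-values from the authors' score none passed, with adjusted p from 0.0600 for LINC00663 to 0.183 for LINC00673, and 0.0744 for LINC00173. The falls of LINC00339, LINC00605 and LINC00698 in NCSC were also lost with normal p-values from the authors' score, with adjusted p of 0.0620, 0.0767 and 0.226. LINC00173 (chr12:116971226-116974550) alone marked these cells, with a margin of 1.14. It was at 2.43, 2.49, 2.72 and 4.58 FPKM in hESC, 1.49 in DE, 0.406 in MESO, 2.85 in NPC and 11.3 in NCSC. The rise of 4.55-fold over its hESC column had q = 0.000455 in the authors' deposited table. Its most like coding gene was FGFBP3, which carries secreted FGF (r = 0.990), at 59.9 FPKM in hESC and 650 in NCSC. LINC00663, LINC00669 and LINC00634 rose in NCSC as in NPC, to 2.24, 1.50 and 1.04 FPKM. LINC00684 rose from 0.545 to 1.86 FPKM, but its NCSC row lies at another interval than in the other 3 tables, so the columns may not measure the same transcript. At the interval used for the other 3, LINC00684 was at 0.0784 FPKM in hESC and 0.281 in NCSC and was not called. It is a member only through the row that rose, its level in the other 3 tables being at most 0.853. LINC00673 rose from 0.369 to 1.17 FPKM. It was at 1.24 in MESO and 1.09 in NPC, levels near that of NCSC, with q of 0.150 and 0.0530 in the authors' deposited tables.

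LINC00339 (chr1:22351706-22357715) fell in NCSC from 16.9 to 6.23 FPKM (q = 0.00371 in the authors' deposited table). In NPC it was at 10.8 against 18.2 (q = 0.112 in the authors' deposited table) and in DE at 18.6 against 19.3. In all, 47 of the 57 members (82.5%) marked no cell type, against 89.0% of all genes. For MESO it was 4 members (7.02%) against 4.60% of all genes, for DE 3 (5.26%) against 2.13%, for hESC 2 (3.51%) against 1.42%, for NCSC 1 (1.75%) against 1.19%, and for NPC 0 against 1.66%. LINC00261, LINC00479, LINC00575, LINC00379, LINC00643 and LINC00341 passed the minimum only through the column they then marked. The minimum thus favours such members, and nothing is read from these shares.

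Long noncoding RNAs of other names, from a list of 50 symbols of which 28 were found, are set beside the members. Of those with at least 1 FPKM, 0 of 18 passed in DE, 2 rose and 4 fell of 19 in MESO, 3 rose and 4 fell of 17 in NPC, and 3 rose and 2 fell of 18 in NCSC. That list includes LINC00617, LINC00152 and LINC00657. MIAT, known from neural tissue, rose from 8.51 to 187 FPKM in NPC and from 7.96 to 102 in NCSC, and fell in MESO from 7.62 to 0.772. The highest level of a LINC member that rose was 11.3, that of LINC00173 in NCSC. ESRG, a transcript of pluripotent cells, lay at 247 to 325 FPKM in hESC and fell to 2.72 in MESO, 0.163 in NPC and 2.25 in NCSC. MALAT1, a nuclear RNA, rose in MESO, NPC and NCSC, and CRNDE rose in NPC and NCSC.

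Of the 57 members, 49 had a protein-coding gene within 100 kb, and for 40 of these that gene reached 1 FPKM. Across these pairs, the change of the LINC gene and that of its neighbour had a Pearson's r of 0.42 in DE (40 pairs), 0.19 in MESO (40), -0.11 in NPC (38) and -0.22 in NCSC (40). Neighbouring coding genes gave r from 0.16 to 0.18. In DE the value rested on LINC00261 and FOXA2, and was 0.15 without that pair. FOXA2, a transcription factor of endoderm, lies 2361 bases from LINC00261 with 35.2 FPKM in DE against 1.27 in hESC (q = 0.0545 in the authors' deposited table). Both were low in the other derivatives, FOXA2 at 0.190 in MESO, 0.112 in NCSC and listed at 0 in NPC. Pairs on a chromosome are points of the same libraries, so these are descriptions only.

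Of the members with a change of at least 1 in these pairs, the neighbour had the same sign in 4 of 6 in DE, 4 of 8 in MESO, 6 of 8 in NPC and 4 of 8 in NCSC. Its own change was then also at least 1 in 3 of them in DE, 2 in MESO and 0 in NPC and NCSC. Among coding genes with such a change, the nearest coding gene had the same sign in 62.9% in DE, 61.1% in MESO, 65.6% in NPC and 64.4% in NCSC. With its own change also at least 1, the shares were 12.2%, 19.3%, 25.6% and 20.2%. The LINC counts are small, and nothing is read from them. LINC00467 and TRAF5, a signalling adaptor 7687 bases away, were among the 3 LINC pairs in DE, with changes of 1.12 and 1.08 and neither called. In NPC they changed by 0.92 and 0.84, but in MESO by 0.83 and 0.01 and in NCSC by 0.39 and 1.02. LINC00159 and HUNK, a kinase, changed by 3.61 and 1.05 in MESO but by 3.54 and -1.36 in NCSC. Other pairs of the named members differed between tables or changed by different amounts. SCD5, a fatty acid desaturase 8099 bases from LINC00575, was at 0.485 FPKM in hESC and 6.11 in DE, and rose in NPC from 0.414 to 26.7, where LINC00575 was listed at 0. SCD5 also rose in MESO, from 0.368 to 3.17, and in NCSC, from 0.387 to 4.27, where LINC00575 was again listed at 0. RIPK4, a kinase 23593 bases from LINC00479, was at 4.03 and 5.90 in the DE table. ARHGAP28, 9760 bases from LINC00668, was at 1.61 and 13.0 in MESO, where LINC00668 was highest, and at 24.2 in DE, where LINC00668 stood at 0.337. LIN28B, the pluripotency-linked RNA-binding gene beside LINC00577, was at 41.6 and 37.1 in the NPC table, while LINC00577 was at 0.523 and 1.55. MAP1LC3B2, 22635 bases from LINC00173, was at 13.5 in hESC and 7.82 in NCSC. Without LINC00159 and its neighbour HUNK, r was 0.12 in MESO and -0.12 in NCSC.

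**Figure D4:**
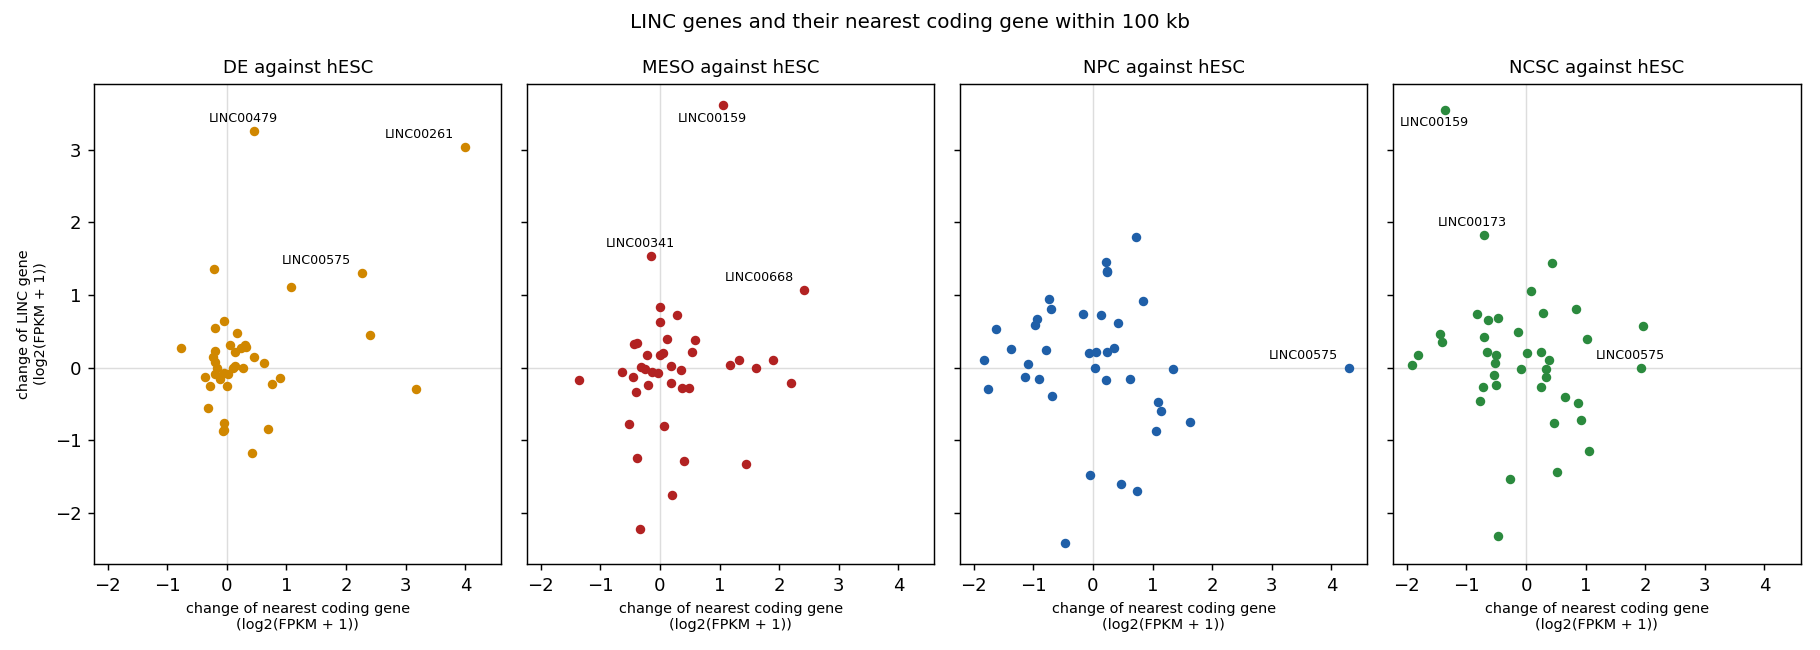
Change in log2(FPKM + 1) of LINC genes (y axis) against that of their nearest coding gene within 100 kb (x axis), 1 panel per derivative and 38 to 40 pairs each. LINC genes whose nearest coding gene stayed under 1 FPKM in every column are left out. The point of LINC00261 and FOXA2 stands alone at the upper right in DE, and no panel shows its points along a line.

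Promoter windows were found in RefSeq for 40 members, 2 more being left out because their present gene is over 5 times as long as the deposited interval. The median GC content was 60.5%, against 58.7% over all 35116 windows and 47.7% over the 1748 windows of LINC symbols. A CpG ratio (observed over expected CG pairs) of at least 0.6 was found in 24 of the 40, or 60.0%, against 48.9% of all windows and 17.3% of LINC windows. Of the 17 with at least 1 FPKM in all 8 columns, 14 had such a ratio, with a median of 25 CG pairs; LINC00657, printed above, is one of them. Of the 16 with 1 FPKM in 1 to 3 columns, 7 had it, with a median of 7 CG pairs. The 5 windows of members that marked a cell type had a median of 5 CG pairs. The members were chosen for their levels, and these are counts with no test.

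The TATA box word TATAAA, searched on both strands, was in 3 of the 40 windows (7.50%), those of LINC00261, LINC00659 and LINC00839. It was in 11.5% of all windows and 16.2% of LINC windows. None of the 17 windows of genes expressed in all columns held it. In 7 windows (17.5%) an oppositely directed RefSeq window overlapped, against 16.3% of all. LINC00526 (chr18:5236722-5238028) and LINC00667 (chr18:5238098-5246505) are such a pair, head to head, and share the stretch below (chr18:5237980-5238149, GRCh38.p14, plus strand), with CG pairs in capitals.
Shared stretch: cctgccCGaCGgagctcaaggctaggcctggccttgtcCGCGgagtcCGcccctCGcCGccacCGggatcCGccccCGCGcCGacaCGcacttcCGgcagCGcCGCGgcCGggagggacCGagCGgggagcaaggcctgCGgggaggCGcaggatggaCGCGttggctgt

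The levels of this pair were near each other in the NPC and NCSC tables. LINC00526 was at 4.07 FPKM in hESC and 7.78 in NPC and at 3.78 and 6.07 in the NCSC table, and LINC00667 at 3.67 and 7.07 and at 3.40 and 6.42. The changes in NPC were both 0.79, with q = 0.102 for LINC00526 and 0.0223 for LINC00667 in the authors' deposited table, so that only LINC00667 is counted as rising. In MESO they parted, with changes of -0.04 and 0.63, and in the DE table LINC00526 stood higher, at 5.63 in hESC and 5.73 in DE against 3.68 and 4.60 for LINC00667. No other pair of windows shared more than 3 words of 20 bases.

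**Figure D5:**
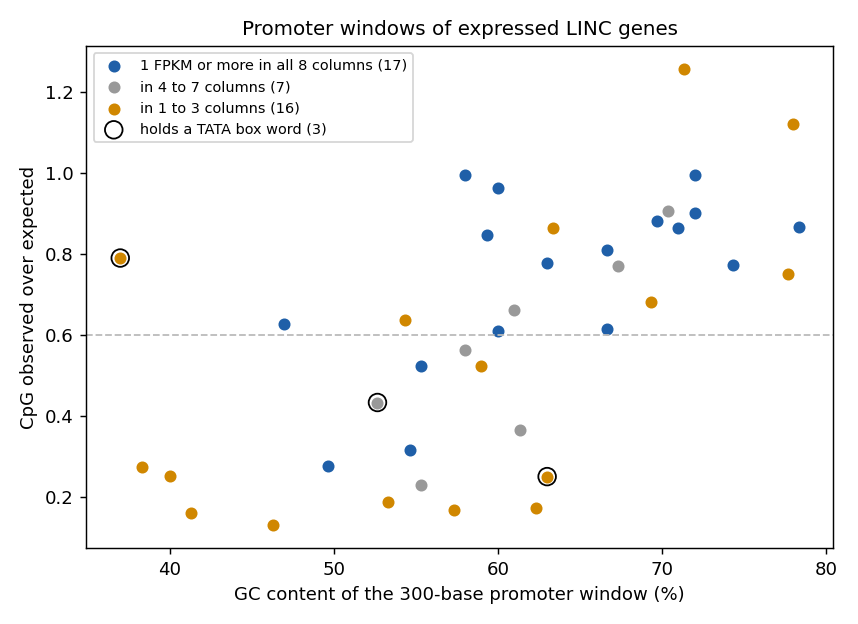
GC content (x axis, percent) and CpG observed over expected (y axis) of the 40 promoter windows of 300 bases; colour gives in how many of the 8 columns the gene had at least 1 FPKM, rings mark windows with the TATA box word, and the dashed line is a ratio of 0.6. Of the 17 genes expressed in all columns 14 lie above the line, and of the 16 expressed in 1 to 3 columns 7 do.

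The 4 hESC columns show how far values of the same cells differed between tables. Over the 51 members above 0 in every hESC column they have, the median ratio of the highest to the lowest was 1.45. Of these, LINC00085 and LINC00599 have no single-symbol value in the NCSC table. Without the DE table the median was 1.16, over a partly different set of 51. That set leaves out LINC00085 and LINC00599 and takes in LINC00643 and LINC00684. The widest ratio in it was 7.66, for LINC00684, whose NCSC row lies at another interval. Among members with a mean of at least 1 FPKM the ratio was widest for LINC00854 (0.358 to 2.37 FPKM), whose interval is wider in the NCSC table, followed by LINC00847 (2.09), LINC00479 (0.105 to 0.210 FPKM), LINC00261 (1.99), LINC00605 (1.94) and LINC00173 (1.89). Of the members with a lower mean, LINC00577 had a ratio of 4.75, LINC00441 of 3.97 and LINC00202-1 of 1.91. The margin of each marking member ran from its lowest value in that cell type to its highest in any other, all hESC columns included. LINC00092 is a member only through its NCSC row, at 1.18 FPKM in hESC and 0.822 in NCSC, which lies at another interval than in the other tables. In 7 members the interval overlapped another locus: LINC00085, LINC00094, LINC00340, LINC00476, LINC00665, LINC00669 and LINC00847.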

How the data were processed

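Poly-A RNA of 10 libraries, 2 per cell type, was sequenced. Per the submitters' processing notes, Cufflinks 2.2.1, featureCounts, Subread 1.5.2 and TopHat2 2.0.13 were used with build hg19, in roles not stated. How the cell types were scaled and whether counting used strand is not given in the sources used here. In 4 tables the authors deposited 1 FPKM for hESC and 1 for a derivative, so libraries had been combined. The test statistic, a signed score, and the p-value and q-value in them were also computed by the authors, per the file headers. Coordinates of the tables are hg19.

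Rows with 1 symbol on chromosomes 1 to 22 and X were kept, and of several rows of a symbol the one with the highest mean FPKM. A locus whose score was 0 and whose p-value was 1 counts as untested. A gene marked a cell type where its lowest log2(FPKM + 1) there was at least 1 above the highest elsewhere. No test of libraries was possible, so the authors' q-value (threshold 0.05, adjusted by them over their whole table) is quoted. The members and lists were chosen with earlier results of these data known. Named genes are up to 6 per cell type marked by margin, up to 6 per table and direction by change among those called, the 5 highest, those next to the minimum, those of the lists, and the 6 with the widest hESC ratio at a mean of at least 1 FPKM; LINC00577, LINC00441, LINC00202-1, C14orf23, HUNK, TRAF5, LINC00159, MIAT, ESRG, CGB, the neighbours, the genes of like pattern and the near misses were named after their values were seen. The score, adjustment and marking functions were tested on simulated data. Promoter windows came from RefSeq (GRCh38.p14), matched by present or former symbol. Python 3.11.15, pandas 2.3.3, numpy 2.4.6 and scipy 1.17.1 were used. Read depth is unknown, so counting error cannot be given. Alternatives were other FPKM minimums, pseudocounts of 0.1 and 5, quantile normalization, other hESC columns, normal p-values from the score and a change of at least 1.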

Additional observations from a re-analysis of the deposited data

How the results depend on the processing

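With a minimum of 5 FPKM there were 24 members and with none 188. With normal p-values from the authors' score, 2 members were higher and 1 lower in DE, 2 higher in MESO, 4 higher and 7 lower in NPC, and 0 higher and 3 lower in NCSC. Of the 28 calls with a finite score, 14 were lost this way. Not called by the authors but passing under it were LINC00261, LINC00479 and LINC00599 in DE, LINC00341, LINC00643, LINC00698 and LINC00707 in MESO, and LINC00654 and LINC00707 in NCSC. Asking also for a change of at least 1 left 4 higher in NPC and 2 in NCSC. A minimum of 5 FPKM left 2 higher and 7 lower in NPC and 1 higher in NCSC, and a minimum of 2 FPKM left 3 higher in NCSC. With a pseudocount of 0.1, 3 members marked NPC (LINC00441, LINC00577 and LINC00648) and 2 NCSC. With a pseudocount of 5, and with a margin of 2, 1 marked hESC, 1 MESO and 0 NCSC, while LINC00261, LINC00479, LINC00379 and LINC00599 still marked their cell types. Quantile normalization left 1 that marked hESC, since LINC00599 has no NCSC row of its own. The median change was 0.29 in NPC and 0.26 in NCSC after quantile normalization, -0.15 and -0.015 with a minimum of 5 FPKM, and -0.11 in MESO against hESC of the other 3 tables. No call of a single member changed direction under another pseudocount, quantile normalization or hESC of the other tables. Without LINC00092 and LINC00684, or with the merged LINC00599 locus, both chosen after seeing the data, each count of calls stayed within 1.5 times. No paired analysis was possible because the tables hold 1 value per cell type, and for the same reason runs without each library were not made. Depth is unknown, so what it limits cannot be stated.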

Other observations

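Of the 34 calls of members, 6 had a derivative listed at exactly 0: LINC00599 in MESO, LINC-ROR, LINC00707 and LINC00839 in NPC, and LINC-ROR and LINC00839 in NCSC. Some levels just above 0 were not called, as for LINC-ROR in MESO (3.69 to 0.00843 FPKM) and LINC00707 in NCSC (6.72 to 0.00603), while LINC00654 in NPC (0.731 to 0.0355) was. Over all tested genes with at least 2 FPKM in hESC, limits chosen after seeing the data, 43 of 63 genes listed at 0 in NPC were called (68.3%), against 26 of 88 genes above 0 and below 0.05 FPKM (29.5%). In NCSC these were 27 of 52 (51.9%) and 14 of 52 (26.9%), and in MESO 10 of 31 (32.3%) and 2 of 19 (10.5%). In DE 0 of 40 genes listed at 0 were called. No cause was tested.

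Further LINC loci were given only merged with other symbols and are no members. LINC00623 merged with FAM91A2 was at 8.15 FPKM in hESC and 14.2 in DE, 8.08 and 14.6 in the NPC table, 7.57 and 14.4 in the NCSC table, and 7.50 and 8.16 in the MESO table. LINC00461, the host of miR-9-2, was at 0.281 or less in all columns.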
